A study of Mus musculus with 15 samples.

Results

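Among cells of the mouse medial cortex at embryonic day E11.5 that were sorted as AnnexinV-positive and propidium iodide-negative, the bulk libraries numbered 1 to 3 had more RNA of several genes of neuron formation than those numbered 4 to 6, and a smaller share of ribosomal protein mRNA, for which no single gene passed the test. Neurod6, a transcription factor of young cortical neurons, and Robo2, a guidance receptor of growing axons, were nearly absent from replicates 4 to 6 and present in each of replicates 1 to 3. Both passed the filter on low counts only through replicates 1 to 3, so each had to differ between the sets to be tested. The compared libraries are 6 of the 15 samples of the study, 3 in each set, and they were assigned by the replicate number in their labels and by no measured value. All came from the C57BL/6 strain and were made by a modified smart-seq2 protocol, in which the RNA of a sorted cell population is copied into full-length cDNA. The other samples are 6 bulk libraries of AnnexinV and propidium iodide double-negative cells of the same tissue, also numbered 1 to 6, and 3 single-cell samples that were not used here. AnnexinV is a protein that recognises phosphatidylserine, a lipid exposed at the surface of cells early in cell death, while propidium iodide stains DNA only after the membrane has been breached. The labels give both sets the same gate, tissue, stage and strain, name no treatment or genotype beyond the strain, and do not say whether the sets differ in litter, sort or day, how many embryos were pooled or how many cells were taken. Effects of any such difference therefore cannot be told apart from one another, and the p-values rest on the spread among these libraries, part of which may be technical.

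In the embryonic cortex, radial glia line the ventricle, divide and give rise to intermediate progenitors and young neurons. Proneural transcription factors such as Neurog2 start this step, and Eomes, Neurod1 and Neurod6 mark its later stages. Young neurons then read guidance cues through receptors of the Robo, DCC, plexin and Eph families. Ribosomal protein mRNAs form another coordinated group, since they begin with a tract of C and T letters through which mammalian cells control their translation together. Blood vessels, mesenchyme and macrophages reach the cortex from outside the neural tube, so their markers show which other cells a dissociated sample held.

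The sequences before the start sites of 3 neurogenic genes that differed between the sets are shown because proneural basic helix-loop-helix proteins bind short E-box motifs. They are the 250 bases before the RefSeq start on GRCm38.p6, written 5′ to 3′ along the gene, for Neurod6 (chr6:55681264-55681513, minus strand), Gadd45g (chr13:51846425-51846674, plus strand) and Sox4 (chr13:28953700-28953949, minus strand). Capitals mark the E-boxes CAGATG, its reverse complement CATCTG and the palindrome CAGCTG, which together cover both strands and cannot overlap one another.
Neurod6: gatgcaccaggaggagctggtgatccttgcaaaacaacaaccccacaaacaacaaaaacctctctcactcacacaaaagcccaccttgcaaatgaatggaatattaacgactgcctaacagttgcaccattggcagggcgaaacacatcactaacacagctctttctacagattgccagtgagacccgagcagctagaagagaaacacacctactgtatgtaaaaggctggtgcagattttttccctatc
Gadd45g: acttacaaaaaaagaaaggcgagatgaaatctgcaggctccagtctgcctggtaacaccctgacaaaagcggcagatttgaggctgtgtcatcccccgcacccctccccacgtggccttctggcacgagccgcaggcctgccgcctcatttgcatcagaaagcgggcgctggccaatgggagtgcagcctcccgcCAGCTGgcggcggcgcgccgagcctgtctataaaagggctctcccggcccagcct
Sox4: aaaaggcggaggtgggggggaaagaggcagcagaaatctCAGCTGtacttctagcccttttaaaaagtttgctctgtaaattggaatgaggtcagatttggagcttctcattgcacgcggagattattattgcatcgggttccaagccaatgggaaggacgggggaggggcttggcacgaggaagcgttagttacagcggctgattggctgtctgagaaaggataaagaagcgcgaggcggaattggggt
Gadd45g and Sox4 each held 1 of these motifs and Neurod6 held 0. Of the 34 genes in the neurogenic list used below, 25 had a start in the RefSeq promoter table, and 20 of their 39 starts (51.3%) held such an E-box, beside 25.5% of all 32851 starts and 17.7% of the starts of tested genes. A match describes letters in this window and is not a measured binding site.

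For ribosomal protein genes the letters at the start itself are of interest. The 15 bases before and the first 15 bases from the RefSeq start are given for Rpl35 (chr2:39005117-39005146, minus strand), which had the smallest p of the ribosomal proteins, for Rpl15 (chr14:18270972-18271001, minus strand), as a further long tract, for Rps2 (chr17:24720048-24720077, plus strand), the parent of a pseudogene described below, and for Rpl41 (chr10:128549154-128549183, minus strand). Capitals mark a run of at least 5 C or T letters on the gene's strand that overlaps the 5 bases on either side of the start.
Rpl35: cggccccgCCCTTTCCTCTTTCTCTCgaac
Rpl15: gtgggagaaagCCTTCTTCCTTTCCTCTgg
Rps2: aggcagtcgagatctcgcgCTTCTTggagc
Rpl41: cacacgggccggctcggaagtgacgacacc
The run was 18 letters long in Rpl35, 17 in Rpl15 and 6 in Rps2, and Rpl41 had none in this window. Over the 61 of 82 ribosomal protein genes with a RefSeq start, 37 of 72 starts (51.4%) had such a run, beside 31.4% of all starts and 30.1% of starts of tested genes.

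The deposited counts summed to 190694, 369244 and 269694 in replicates 1 to 3 and to 303016, 444412 and 442870 in replicates 4 to 6. A single ribosomal RNA gene, CT010467.1, took 30.1, 22.1 and 21.5% of them in replicates 1 to 3, against 23.1, 30.5 and 41.3% in replicates 4 to 6. With 9145 to 10065 genes detected per library, 1 count was worth 2.55 to 5.97 CPM (counts per 1000000 counts in tested genes, scaled by trimmed mean of M-values), so a gene near 10 CPM rests on a few counts. Emx2 and Lhx2, transcription factor genes of the cortex, had 67.1 to 194 CPM in all 6 libraries, and the neural progenitor gene Sox2 had 71.6 to 175 CPM. Spearman correlations between libraries, over tested genes, were 0.597 to 0.605 within replicates 1 to 3, 0.621 to 0.671 within replicates 4 to 6 and 0.545 to 0.603 between the sets. The first principal component, with 27.0% of the variance, placed replicates 1 to 3 on one side and replicates 4 to 6 on the other.

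In edgeR's quasi-likelihood test with Benjamini-Hochberg adjustment, 12 of 4663 genes reached an adjusted p under 0.05 (0.257%), 9 of them higher in replicates 1 to 3 (0.193%) and 3 lower (0.0643%). The unadjusted p was under 0.05 for 189 genes with higher and 231 with lower levels in replicates 1 to 3 (4.05% and 4.95%). The libraries of the sets did not overlap for 365 genes that were higher (7.83%) and 387 that were lower (8.3%), and the median log2 fold change of all tested genes, replicates 1 to 3 minus replicates 4 to 6, was −0.01. Of the 12, 8 were the named genes Neurod6, Robo2, Gadd45g, Sox4, Nfia, Ptn, Ppp2r2b and Xist, and the other 4 had predicted or pseudogene symbols. A gene passed the filter on low counts if enough libraries reached about 10 counts, and 5 of the 9 higher genes did so only through replicates 1 to 3 and the 3 lower genes only through replicates 4 to 6. Such a gene had to differ between the sets in order to be tested. The 5 higher ones were Neurod6, Robo2, Gadd45g, Ppp2r2b and Gm20716. Nfia, Sox4 and Xist reached that level in all 6 libraries, and Ptn lay in between, with 7 counts in replicate 6. Without replicate 5 no gene was called, and the count at an unadjusted p under 0.05 was 406, against 420 with all 6 libraries. The number of called genes was 4 without replicate 1, 7 without replicate 3 and 6 without replicate 6.

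**Figure D1:**
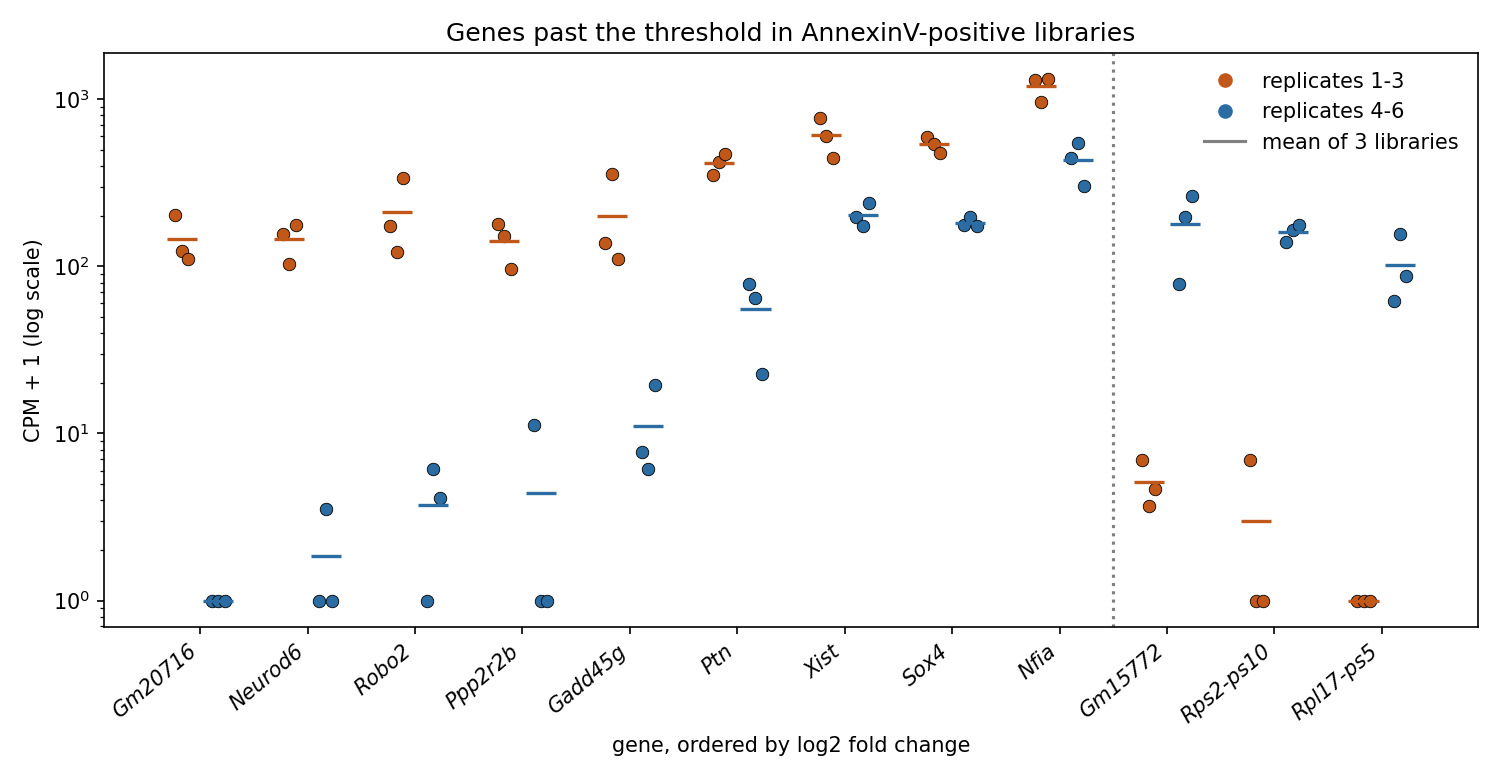
CPM plus 1 on a log axis for the 12 genes past the adjusted p of 0.05, ordered by log2 fold change, with replicates 1 to 3 in orange left of replicates 4 to 6 in blue and a line at the mean of each 3 libraries. For every one of the 12 the points of the sets do not overlap, and Gm20716 and Rpl17-ps5 have 0 counts in each library of 1 set.

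Genes of neuron formation were higher in replicates 1 to 3. Neurod6, Gadd45g and Sox4 rose past the threshold, Sox11 and Myt1 stood just outside it, and Neurog2, Neurod1 and Tbr1 had libraries that overlapped between the sets. Summed over all 34 members of the list, the level was 7798, 9784 and 6765 CPM in replicates 1 to 3, against 4047, 3226 and 3474 CPM in replicates 4 to 6, a mean of 8116 ± 1535 against 3582 ± 421 CPM (SD, n = 3 each). Sox11 held most of these counts, and without it the remaining 33 members summed to 2912, 2470 and 2462 CPM against 1022, 830 and 689 CPM. The sets did not overlap in either sum.

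Neurod6 lies on chromosome 6 (GRCm38, positions 55677822 to 55681263, minus strand) and encodes a basic helix-loop-helix factor of young excitatory neurons. It had 155, 102 and 175 CPM in replicates 1 to 3, from 26, 38 and 48 counts, against 0, 2.55 and 0 CPM in replicates 4 to 6, from 1 count in all. The pooled ratio was 139, with a 95% Clopper-Pearson interval of 24.4 to 5539 that covers counting error only. In edgeR's quasi-likelihood test the log2 fold change was 6.70 (SE 0.98, adjusted p = 0.0057). Gadd45g, a stress response gene that is also expressed as neural precursors differentiate, had 137, 354 and 109 CPM in replicates 1 to 3, against 6.77, 5.09 and 18.6 CPM in replicates 4 to 6. Every library of replicates 1 to 3 exceeded every library of replicates 4 to 6, with replicate 2 the highest, and the log2 fold change was 4.28 (SE 0.71, adjusted p = 0.016). Sox4, which encodes an HMG-box factor that drives neuronal gene expression together with Sox11, had 597, 537 and 474 CPM in replicates 1 to 3, against 176, 196 and 174 CPM in replicates 4 to 6. Its 2 sets were each tight and far apart, and the log2 fold change was 1.55 (SE 0.28, adjusted p = 0.033).

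Sox11 itself had 4890, 7310 and 4300 CPM in replicates 1 to 3, against 3030, 2400 and 2790 CPM in replicates 4 to 6. The libraries did not overlap, and the log2 fold change of 1.01 (SE 0.20) missed the threshold with an adjusted p of 0.057 in edgeR. Myt1, a zinc finger factor of neuronal differentiation, had 25, 16 and 20 counts in replicates 1 to 3 and 0 in each of replicates 4 to 6, which is at least 25.2-fold higher against a floor of 3 counts over the group (adjusted p = 0.057 in edgeR). Dll1, a Notch ligand of differentiating cells, had 95.5, 207 and 62.0 CPM in replicates 1 to 3, against 0, 10.2 and 9.31 CPM in replicates 4 to 6 (log2 fold change 4.10, SE 0.93, adjusted p = 0.10 in edgeR). The POU factor genes Pou3f2, at 77.6, 59.1 and 131 CPM against 13.5, 7.64 and 0 CPM, and Pou3f3, at 263, 397 and 252 CPM against 196, 107 and 115 CPM, had adjusted p of 0.23 and 0.35. Neither pair of sets overlapped, and neither gene passed the test. Myt1, Dll1 and Pou3f2 reached the filter's level only in replicates 1 to 3, as did Neurod6 and Gadd45g. These genes had to differ between the sets to be tested.

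Members of the intermediate progenitor program were less even. Eomes, its defining factor, had 292, 56.4 and 58.4 CPM in replicates 1 to 3, against 0, 56.0 and 0 CPM in replicates 4 to 6, so replicate 5 nearly reached replicates 2 and 3 (log2 fold change 2.73, adjusted p = 0.49 in edgeR). Neurog2, which starts neuron formation, had 113, 37.6 and 83.9 CPM in replicates 1 to 3, against 10.2, 66.2 and 6.20 CPM in replicates 4 to 6, and the sets overlapped through replicate 5. Neurod1 had 77.6, 16.1 and 76.6 CPM against 67.7, 56.0 and 0 CPM, with overlapping sets. Among members too low to test, Insm1, a zinc finger gene of basal progenitors, had 9, 32 and 3 counts in replicates 1 to 3 and 1, 0 and 0 in replicates 4 to 6, and Neurod4 had 0, 35 and 8 counts against 0 in each. Ebf3 went the other way, with 0 counts in each of replicates 1 to 3 and 28, 7 and 0 in replicates 4 to 6.

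Of the 34 members of the list, 32 had a count and 16 were tested, 5 of these only through replicates 1 to 3. All 16 tested members had positive log2 fold changes, from 0.32 to 7.74 with a median of 1.45, beside 49.4% positive and a median of −0.01 over all tested genes, and 3 passed the test. Because of the filter, the 4 members that reached its level in all 6 libraries are given apart: all 4 were positive with a median of 1.07, and 1 of them, Sox4, was called, where the 1991 tested genes of that kind had a median of −0.12. The 18 members too low to test summed to 501, 362 and 383 CPM in replicates 1 to 3, against 257, 153 and 109 CPM in replicates 4 to 6, also without overlap. DESeq2 called 7 members higher, beside 67 of all 4663 tested genes (1.44%). Limma-voom called 2, beside 6 of all (0.129%).

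Structural genes of young neurons did not follow as clearly. Of 40 list members, 37 had a count, 22 were tested and 0 were called by edgeR, DESeq2 or limma-voom, with 1 at an unadjusted p under 0.05 in edgeR, and 18 of the 22 had positive log2 fold changes with a median of 0.49. Their summed level was 5949, 6389 and 6674 CPM in replicates 1 to 3, against 6544, 3402 and 3226 CPM in replicates 4 to 6, and replicate 4 lay inside the range of replicates 1 to 3. Map2, a dendritic microtubule protein, had 334, 201 and 368 CPM against 91.4, 148 and 180 CPM, without overlap (log2 fold change 1.10, SE 0.39, adjusted p = 0.37 in edgeR). Dcx, the doublecortin of migrating neurons, had 101, 209 and 62.0 CPM against 81.2, 43.3 and 15.5 CPM (1.43, adjusted p = 0.58). Elavl4, a neuronal RNA-binding protein, had 215, 169 and 120 CPM against 88.0, 68.8 and 0 CPM (1.67, adjusted p = 0.57). Stmn2, a marker of growing neurites, had only 6, 0 and 14 counts in replicates 1 to 3 and 14, 1 and 4 in replicates 4 to 6. In bulk RNA, fewer cells of a type and less RNA per cell cannot be told apart.

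Among the other called genes, Nfia, a transcription factor of cortical progenitors and of glia, had 1310, 964 and 1320 CPM in replicates 1 to 3, against 443, 550 and 301 CPM in replicates 4 to 6 (log2 fold change 1.47, SE 0.25, adjusted p = 0.022 in edgeR). Its relative Nfib, which was named after its values were seen, averaged 743 ± 138 against 321 ± 87.6 CPM (SD, n = 3 each; log2 fold change 1.20, adjusted p = 0.107 in edgeR). Ptn, the secreted growth factor pleiotrophin of radial glia, had 352, 419 and 467 CPM in replicates 1 to 3, against 77.8, 63.7 and 21.7 CPM in replicates 4 to 6 (2.92, SE 0.44, adjusted p = 0.0065). Ppp2r2b, a regulatory subunit of protein phosphatase PP2A in the brain, had 30, 56 and 26 counts against 3, 0 and 0 (5.34, SE 1.0, adjusted p = 0.035), a pooled ratio of 46.3 with a counting interval of 15.5 to 228. None of these 4 genes had libraries that overlapped between the sets. Xist, the noncoding RNA of the inactive X chromosome, had 776, 599 and 445 CPM in replicates 1 to 3, against 196, 173 and 239 CPM in replicates 4 to 6 (1.58, SE 0.30, adjusted p = 0.037). Genes of the Y chromosome were counted in every library, with the 4 on the list summing to 161, 177 and 226 CPM against 179, 96.8 and 189 CPM, so all 6 libraries held both Xist and Y-linked RNA. Gm20716, a predicted gene on chromosome 2 (168180986 to 168230364, minus strand) whose annotated span overlaps Adnp and Dpm1, had 34, 46 and 30 counts in replicates 1 to 3 and 0 in each of replicates 4 to 6, and its reads cannot be told apart from those of its neighbours. In limma-voom 4 of the 12 genes were called (Nfia, Ptn, Sox4 and Xist), and in DESeq2 all 12.

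Among axon guidance genes, the receptor gene Robo2 rose and no other member passed the test. Robo2 lies on chromosome 16 (73891839 to 74411825, minus strand) and encodes a receptor for the repellent Slit proteins. It had 29, 45 and 93 counts in replicates 1 to 3, or 173, 121 and 339 CPM, against 0, 2 and 1 counts in replicates 4 to 6, or 0, 5.09 and 3.10 CPM. The sets were far apart, the pooled ratio was 69.1 with a counting interval of 23.2 to 338, and the log2 fold change was 5.99 (SE 0.80, adjusted p = 0.0057 in edgeR's quasi-likelihood test). Its paralogue Robo1 was too low to test, with 8, 0 and 1 counts in replicates 1 to 3 and 0, 3 and 26 in replicates 4 to 6. Slit2, a ligand of both, had 23.9, 105 and 62.0 CPM against 13.5, 40.7 and 3.10 CPM (1.71, adjusted p = 0.72), with overlapping sets.

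Other receptors showed differences that stayed short of the threshold. Plxna2, a semaphorin receptor, had 119, 164 and 131 CPM in replicates 1 to 3, against 13.5, 22.9 and 18.6 CPM in replicates 4 to 6, without overlap (log2 fold change 2.88, SE 0.63, adjusted p = 0.089 in edgeR). Epha5, an ephrin receptor, had 227, 174 and 204 CPM against 20.3, 0 and 55.8 CPM (3.0, SE 0.79, adjusted p = 0.17). Nrcam, a cell adhesion partner of semaphorin receptors, had 7, 15 and 16 counts against 0 in each of replicates 4 to 6, at least 15.7-fold higher (adjusted p = 0.28). Plxna2 and Nrcam reached the filter's level only in replicates 1 to 3, as Robo2 did. These genes had to differ between the sets to be tested. The netrin receptor gene Dcc had 53.7, 129 and 157 CPM in replicates 1 to 3, against 44.0, 22.9 and 52.7 CPM in replicates 4 to 6 (1.52, adjusted p = 0.52). Replicate 1 of Dcc was close to replicate 6, so its sets barely separated. Epha7 was lower, at 29.8, 26.8 and 32.8 CPM against 27.1, 56.0 and 223 CPM, a difference carried by replicate 6 (−1.76, adjusted p = 0.54). The semaphorin co-receptor Nrp1 had 0 to 5 counts per library and could not be tested.

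Of 78 axon guidance genes, 67 had a count and 31 were tested, 4 of them only through replicates 1 to 3. EdgeR called 1 higher, beside 0.193% of all tested genes, DESeq2 3, beside 1.44%, and limma-voom 0. By role, 4 of 9 Slit and Robo genes were tested, with a median log2 fold change of 1.51, and 7 of 27 semaphorins, plexins and neuropilins, with a median of 1.11. Netrin, DCC, neogenin and UNC5 genes (8 of 16 tested) had a median of 0.71, and adhesion and other genes (5 of 8 tested) of 0.81, while Eph receptors and ephrins (7 of 18 tested) had −0.05. Over the 31, 23 were positive and 8 did not overlap, all higher, with a median of 0.81. All tested genes had 49.4% positive, 7.83% higher without overlap and a median of −0.01. Those 12 that reached the filter's level in all 6 libraries had a median of 0.24, 7 positive values and 0 without overlap. The 1991 tested genes of that kind had a median of −0.12. Summed over all 78 members, the level was 5585, 5914 and 6929 CPM in replicates 1 to 3, against 4802, 3410 and 4808 CPM in replicates 4 to 6, but the 47 members too low to test overlapped, at 483, 314 and 726 CPM against 308, 458 and 596 CPM.

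**Figure D2:**
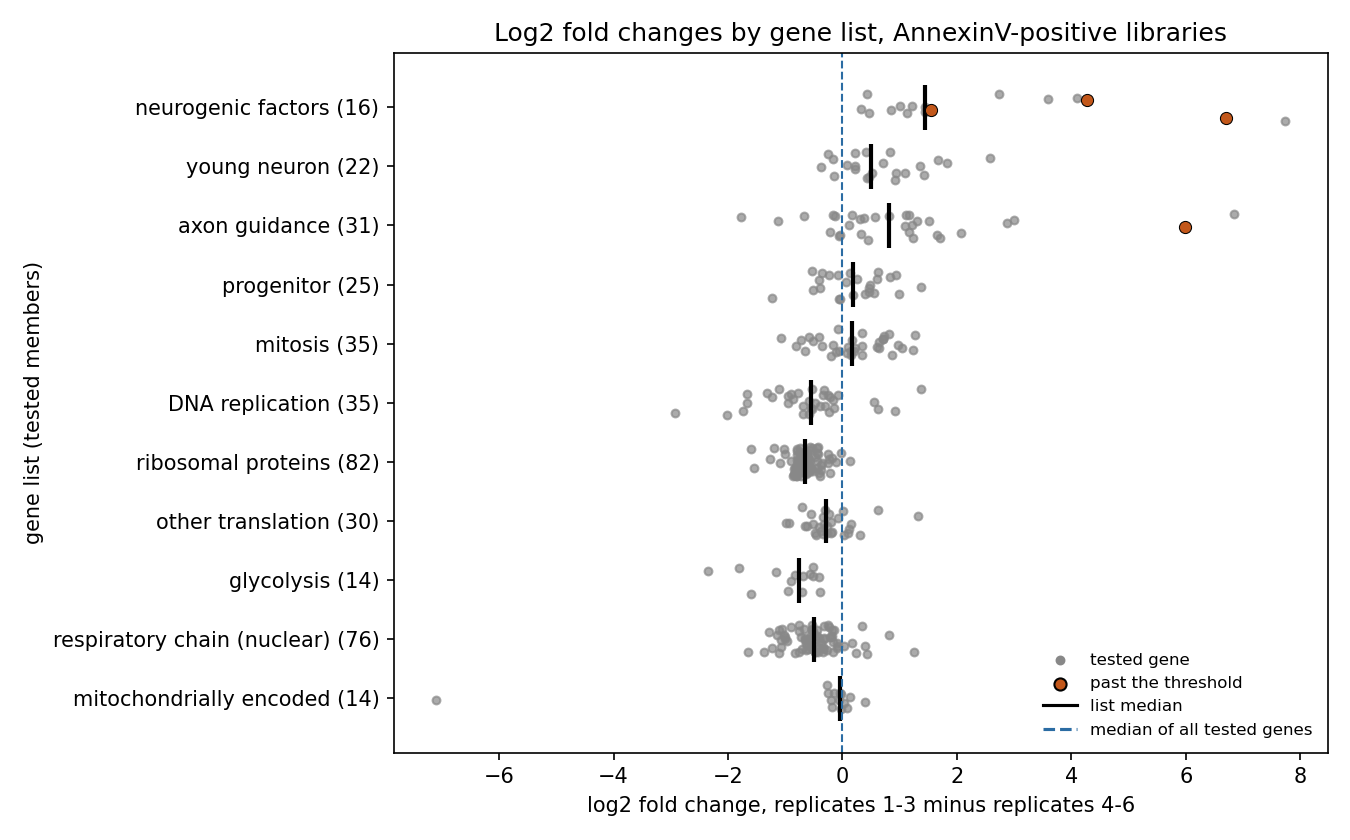
Log2 fold change of each tested gene, replicates 1 to 3 minus replicates 4 to 6, by gene list (rows, with the number of tested members); black bars are list medians, orange points passed an adjusted p of 0.05 and the dashed line is the median of all tested genes at −0.01. The neurogenic list has a median of 1.45 with 3 called genes, axon guidance 0.81 with 1, ribosomal proteins −0.65 with 0 and glycolysis −0.77 with 0.

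Ribosomal protein genes had lower levels in replicates 1 to 3 as a group, with none past the edgeR threshold singly. Together they took 3.28, 3.21 and 3.31% of all counts in replicates 1 to 3, against 4.50, 4.59 and 4.45% in replicates 4 to 6, a mean of 3.26 ± 0.053% against 4.51 ± 0.067% (SD, n = 3 each; exact two-sided permutation test p = 0.1, the smallest that 3 against 3 allows). The summed level was 37314, 31775 and 32541 CPM against 46124, 51898 and 61190 CPM. In both measures the sets did not overlap, and the shares of all counts were almost equal within each set. Of the counts outside the ribosomal RNA gene and the mitochondrial genome, the shares were 4.90, 4.25 and 4.37% in replicates 1 to 3, against 6.04, 6.84 and 8.01% in replicates 4 to 6. These spread more within replicates 4 to 6. All 82 genes were tested, 80 of them at the filter's level in every library, and 81 had negative log2 fold changes with a median of −0.65 (−1.60 to 0.13), beside 50.6% negative over all tested genes. Of the 80 genes at the filter's level in every library, 79 were negative and 44 were lower without overlap. The 1991 tested genes of that kind had 59% negative, a median of −0.12 and 12.4% lower without overlap. Over all 82 the libraries did not overlap for 45, all lower, and 45 had an unadjusted p under 0.05, all lower. The shares of all tested genes were 8.3% lower without overlap and 4.95% lower at that p. DESeq2 called 13 lower, beside 1.14% of all tested genes, and limma-voom 1, beside 0.0429%.

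Rpl35, of the large subunit, had 1320, 1040 and 1150 CPM in replicates 1 to 3, against 2020, 2150 and 1980 CPM in replicates 4 to 6 (log2 fold change −0.81, SE 0.18, adjusted p = 0.10 in edgeR). Rpl41, the smallest ribosomal protein, had 692, 636 and 627 CPM against 1040, 1160 and 1710 CPM (−1.0, SE 0.23, adjusted p = 0.10). Rps19, of the small subunit, had 978, 886 and 1200 CPM against 1460, 1860 and 2410 CPM (−0.90, SE 0.22, adjusted p = 0.15). In each of these genes every library of replicates 1 to 3 lay below every library of replicates 4 to 6. The stalk protein gene Rplp0 had 1270, 1040 and 1050 CPM against 1370, 1880 and 2750 CPM (−0.84, adjusted p = 0.23). Rpl3 was the exception with a positive value, 0.13.

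Translation factors and other growth-related mRNAs leaned the same way. Of 30 tested, 22 were negative with a median of −0.29 and 6 were lower without overlap. EdgeR called 0, with 8 lower at an unadjusted p under 0.05, and DESeq2 called 2 lower. Over all tested genes 50.6% were negative, 8.3% were lower without overlap and 4.95% were lower at that p, and DESeq2 called 1.14% lower. Of the 28 at the filter's level in every library, 21 were negative and 6 were lower without overlap, with a median of −0.31. The 1991 tested genes of that kind had 59% negative, 12.4% lower without overlap and a median of −0.12. Eif3a, a scaffold of initiation factor eIF3, had 322, 271 and 263 CPM in replicates 1 to 3, against 680, 504 and 502 CPM in replicates 4 to 6 (−0.98, SE 0.27, adjusted p = 0.20). Eif5a, an elongation factor, had 239, 333 and 387 CPM against 585, 670 and 592 CPM (−0.94, adjusted p = 0.23), and the nucleolar protein gene Npm1 had 949, 921 and 795 CPM against 1630, 1260 and 1200 CPM (−0.62, adjusted p = 0.34). The sets did not overlap in these 3 genes. Transcript length moved with these values: the 1151 tested genes whose longest annotated transcript was shortest (204 to 2226 bases) had a median log2 fold change of −0.27, or −0.23 without ribosomal proteins, and the 1151 with the longest had 0.17. The part of length in the ribosomal result was not tested.

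**Figure D3:**
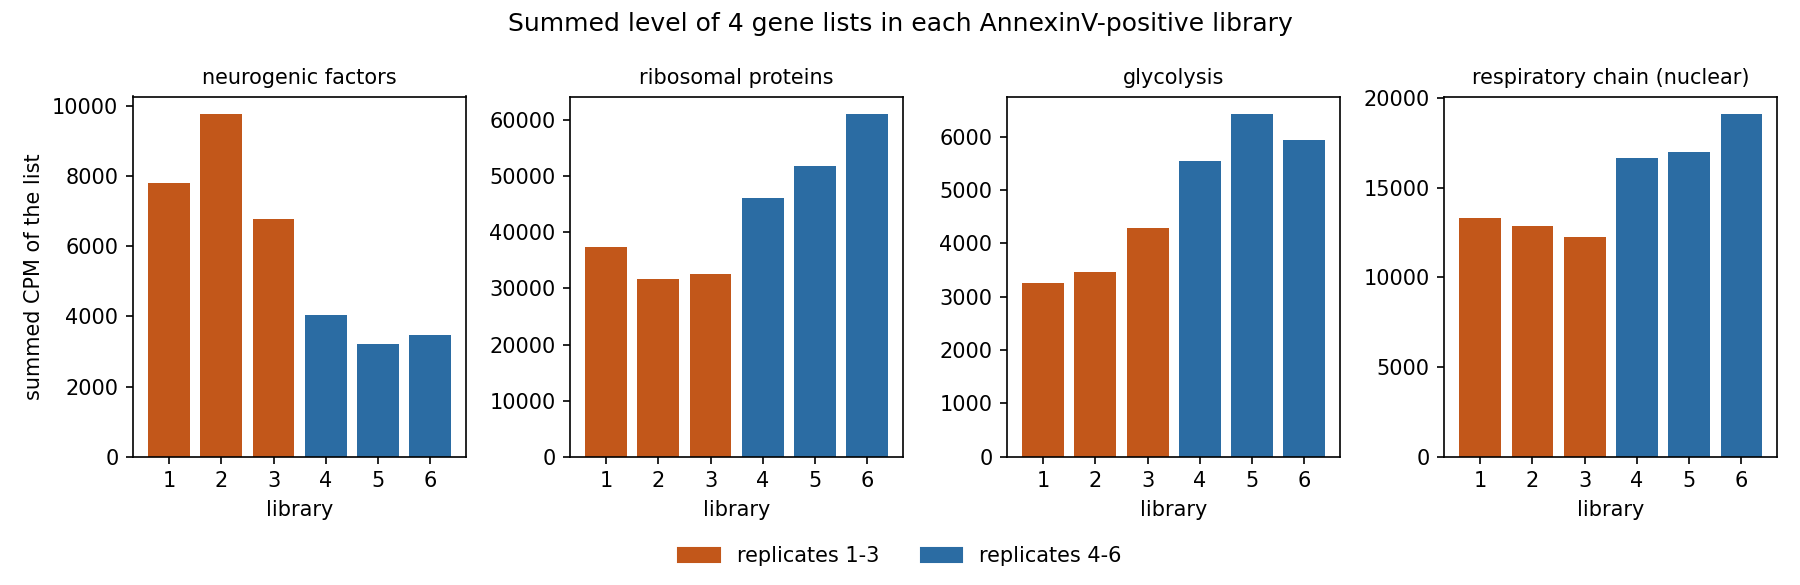
Summed CPM of all members of 4 gene lists in each AnnexinV-positive library, with replicates 1 to 3 in orange left of replicates 4 to 6 in blue and bars starting at 0. Neurogenic factors sum to 6765 to 9784 CPM in replicates 1 to 3 and 3226 to 4047 in replicates 4 to 6, and the other 3 lists are lower in each of replicates 1 to 3.

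The 3 called genes that fell are pseudogene symbols. Rps2-ps10, a copy of Rps2 on chromosome 18, had 1, 0 and 0 counts in replicates 1 to 3 and 41, 64 and 57 in replicates 4 to 6 (log2 fold change −6.55, SE 0.96, adjusted p = 0.0057 in edgeR). Gm15772, a processed pseudogene on chromosome 5 (3236431 to 3236868, plus strand), had 1, 1 and 1 counts against 23, 77 and 85 (−5.43, SE 0.80, adjusted p = 0.0057). Rpl17-ps5, a copy of Rpl17 on chromosome 5, had 0 counts in each of replicates 1 to 3 and 18, 61 and 28 in replicates 4 to 6, at least 28.7-fold lower (adjusted p = 0.035). The sets were wholly apart in all 3. Reads of a processed copy and of its parent are nearly identical, so the split between them is uncertain. The parents Rps2 and Rpl17 are given with the copies added, and Gm15772 was not added to a parent. Rps2 with its copy summed to 531, 497 and 398 CPM in replicates 1 to 3, against 731, 975 and 1163 CPM in replicates 4 to 6, and Rpl17 with its copy to 346, 220 and 237 CPM against 393, 519 and 617 CPM. The copy took 1.12, 0 and 0% of the Rps2 counts in replicates 1 to 3, against 19.0, 16.7 and 15.2% in replicates 4 to 6, so the split itself differed between the sets. The same 3 symbols were at 0 to 2 counts in each double-negative library 1 to 3 and at 3 to 34 counts in each double-negative library 4 to 6.

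Genes of energy metabolism leaned lower in replicates 1 to 3, with 0 past the adjusted threshold in edgeR or limma-voom. All 14 tested glycolysis and hypoxia genes of 22 had negative log2 fold changes, with a median of −0.77. Of these, 7 were lower without overlap, 7 had an unadjusted p under 0.05 and 2 were called by DESeq2. Over all tested genes 50.6% were negative, 8.3% were lower without overlap and 4.95% were lower at that p, and DESeq2 called 1.14% lower. The 9 of the 14 at the filter's level in every library were all negative, with a median of −0.69, and 5 were lower without overlap. Aldoa, the aldolase of glycolysis, had 501, 381 and 646 CPM in replicates 1 to 3, against 1090, 975 and 906 CPM in replicates 4 to 6 (−0.96, SE 0.24, adjusted p = 0.15 in edgeR). Ldha, lactate dehydrogenase A, had 280, 354 and 394 CPM against 684, 726 and 518 CPM (−0.90, adjusted p = 0.24). Of 76 tested nuclear genes of the respiratory chain, 68 were negative with a median of −0.50 and 31 were lower without overlap. At an unadjusted p under 0.05, 14 were lower, and DESeq2 called 1 lower. Of the 63 at the filter's level in every library, 58 were negative and 26 were lower without overlap, with a median of −0.48. The 1991 tested genes of that kind had 59% negative, 12.4% lower without overlap and a median of −0.12. Atp5h, a subunit of ATP synthase, had 179, 220 and 142 CPM against 328, 418 and 431 CPM (−1.11, SE 0.32, adjusted p = 0.24). Genes encoded in the mitochondrial genome did not share this: 14 tested genes had a median of −0.04, and the share of counts in them was 3.04, 2.38 and 2.72% against 2.47, 2.48 and 3.04%. The libraries of 2 of them did not overlap, both lower, beside 8.3% of all tested genes. Of the 13 at the filter's level in every library, 1 was lower without overlap. The subunit gene mt-Nd4l had 0 counts in each of replicates 1 to 3 and 10, 28 and 20 in replicates 4 to 6 (adjusted p = 0.19 in edgeR). It reached the filter's level only in replicates 4 to 6, so it had to differ between the sets to be tested. The gene mt-Nd4, which overlaps mt-Nd4l, had 1520, 1500 and 1570 CPM against 1660, 1660 and 1980 CPM (log2 fold change −0.21, adjusted p = 0.87).

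Vascular genes were counted mainly in replicates 5 and 6. Of 34 endothelial markers, 31 had a count and none was high enough to test. Their counts summed to 48, 4 and 66 in replicates 1 to 3 and 17, 284 and 496 in replicates 4 to 6, or 286, 10.7 and 241 CPM against 57.5, 723 and 1538 CPM, so the sets overlapped through replicate 4. The number of markers with a count was 7, 2 and 15 in replicates 1 to 3, against 3, 23 and 26 in replicates 4 to 6. The endothelial junction genes Cdh5 and Cldn5 had 0 counts in each of replicates 1 to 3 and 0, 22 and 19 and 0, 11 and 22 counts in replicates 4 to 6, and the growth factor receptor Kdr had 3, 0 and 1 counts against 0, 26 and 25. The endoglin gene Eng had 0, 0 and 2 counts against 0, 20 and 74, and the adhesion gene Pecam1 3, 0 and 8 counts against 0, 3 and 24. Basement membrane genes, 8 of 16 tested and 0 called, with 0 at an unadjusted p under 0.05, had a median of −0.64 and summed to 489, 234 and 831 CPM against 240, 726 and 1349 CPM. Col4a1, the main collagen of that layer, had 8, 0 and 32 counts against 0, 55 and 78, following the same libraries.

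Mesenchymal genes followed libraries rather than sets. Of 43 markers, 31 had a count and 8 were tested, with 0 called by edgeR, 1 higher at an unadjusted p under 0.05 and 1 called higher by DESeq2. Of all tested genes 4.05% were higher at that p, and DESeq2 called 1.44% higher. Their sum was 1289, 462 and 2184 CPM in replicates 1 to 3, against 362, 509 and 1923 CPM in replicates 4 to 6, high in replicates 1, 3 and 6. The fibrillar collagen genes showed it most plainly, with Col1a1 at 7, 0 and 42 counts against 2, 0 and 129, Col1a2 at 28, 0 and 84 against 7, 0 and 55, and Col3a1 at 17, 0 and 19 against 0, 0 and 52. All 3 were at 0 in replicates 2 and 5 and in every double-negative library. Mfap4, a matrix protein gene, was the only tested member without overlap, at 113, 129 and 120 CPM against 0, 28.0 and 15.5 CPM (log2 fold change 2.98, SE 0.86, adjusted p = 0.23 in edgeR), and its levels did not track the collagens. Mfap4 reached the filter's level only in replicates 1 to 3, so it had to differ between the sets to be tested. Alx1, a craniofacial mesenchyme factor, had 13, 0 and 37 counts in replicates 1 to 3 and 0 in each of replicates 4 to 6, and Prrx1, of limb and head mesenchyme, had 41, 11 and 60 against 0, 21 and 28. The contractile gene Myl9, of the pericyte and smooth muscle list, had 3, 0 and 90 counts against 0, 1 and 29, and that list as a whole overlapped.

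**Figure D4:**
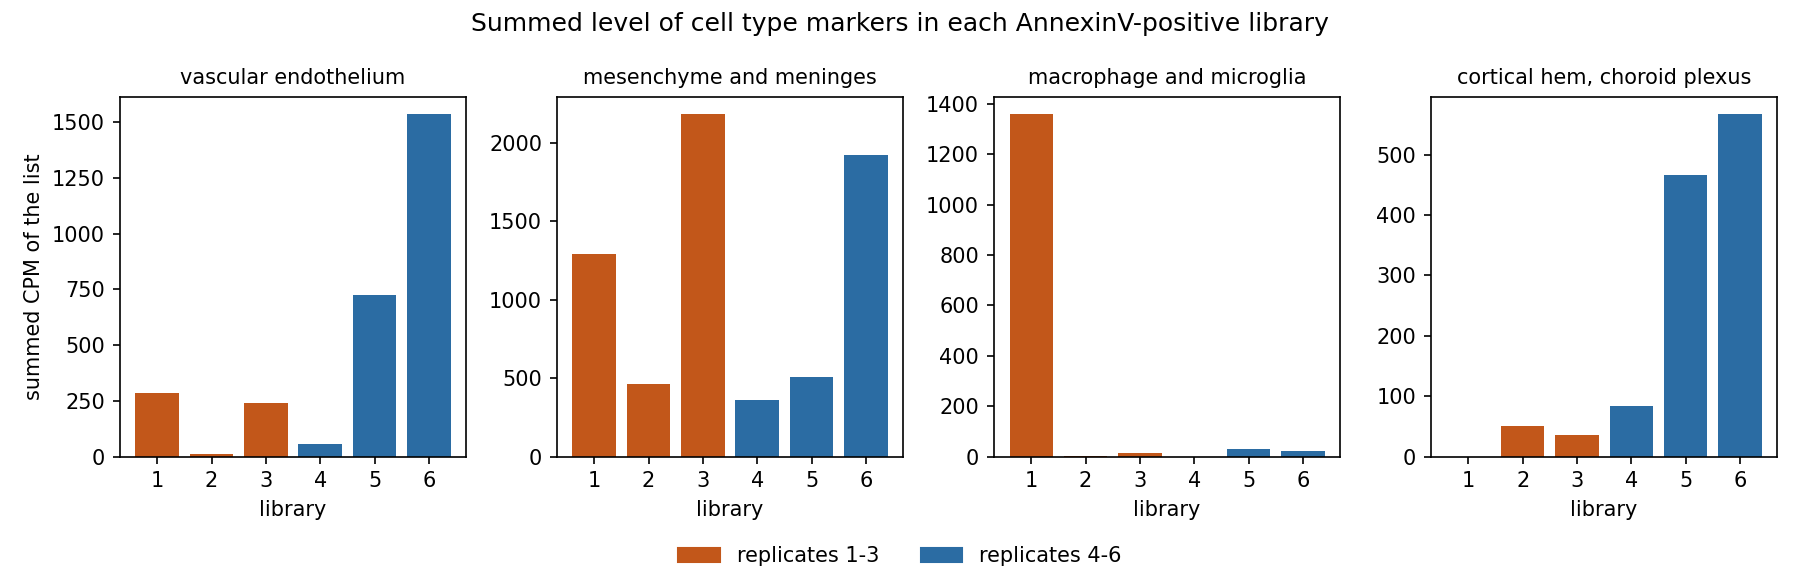
Summed CPM of 4 lists of cell type markers in each AnnexinV-positive library, replicates 1 to 3 in orange left of replicates 4 to 6 in blue, bars from 0. Endothelial markers are highest in replicates 5 and 6 (723 and 1538 CPM), mesenchymal markers in replicates 1, 3 and 6, macrophage markers in replicate 1 (1360 CPM) and cortical hem and choroid plexus genes in replicates 5 and 6 (466 and 568 CPM).

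Other cell types were spread as unevenly. Macrophage and microglia markers had 228, 1 and 4 counts in replicates 1 to 3 and 0, 12 and 7 in replicates 4 to 6, so nearly all lay in replicate 1, where C1qb, of the complement system, had 47 counts. Genes of the cortical hem and choroid plexus, the signalling centre and secretory tissue at the medial edge of the cortex, had 0, 19 and 10 counts in replicates 1 to 3 and 25, 183 and 183 in replicates 4 to 6, without overlap in CPM. That list holds Id3, a target of BMP signalling, at 0, 9 and 2 counts against 5, 84 and 107, and Rspo3, a WNT agonist, at 0, 0 and 2 counts against 18, 27 and 10, while the choroid plexus gene Ttr was at 0 in all 6 libraries. Without Id3 the other 18 members of the list summed to 0, 26.8 and 29.2 CPM against 67.7, 252 and 236 CPM. Neural crest markers had 7, 1 and 31 counts in replicates 1 to 3 and 0 in each of replicates 4 to 6, and Cajal-Retzius genes had 0, 20 and 1 counts against 47, 14 and 1, with Reln at 33 counts in replicate 4. Surface ectoderm markers were at 0 in every library. The part of these cell types in the neurogenic and ribosomal differences was not tested. With replicates 1 and 6 left out, a choice made after the values were seen, edgeR called no gene and 364 had an unadjusted p under 0.05. The neurogenic median was then 1.11 and the ribosomal median −0.63. This choice kept replicate 5, with 183 hem and choroid plexus counts, and replicate 3, with 2184 CPM of mesenchymal markers. It is therefore no test of that part.

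Progenitor genes did not separate the sets as a group. Of 25 tested of 29, 15 were positive with a median of 0.18 and 0 were called by edgeR. At an unadjusted p under 0.05 in edgeR, 3 were higher and 1 was lower, beside 4.05% and 4.95% of all tested genes. DESeq2 called 2, beside 2.57% of all. Hmga2, which encodes an architectural chromatin factor of young stem cells, was the lowest, at 310, 295 and 529 CPM in replicates 1 to 3, against 897, 1050 and 707 CPM in replicates 4 to 6 (log2 fold change −1.22, SE 0.28, adjusted p = 0.10 in edgeR). Pax6, a radial glia factor, was higher in each of replicates 1 to 3 at 149, 164 and 259 CPM, against 64.3, 86.6 and 68.2 CPM (1.38, SE 0.45, adjusted p = 0.33). Mitosis genes had a median of 0.17 over 35 tested, and Mki67, a marker of cycling cells, had 555, 671 and 430 CPM against 443, 418 and 589 CPM. DNA replication genes leaned lower, with 31 of 35 negative, 10 lower without overlap and a median of −0.55. EdgeR called 0, with 6 lower at an unadjusted p under 0.05, and DESeq2 called 1 lower. Over all tested genes 50.6% were negative, 8.3% were lower without overlap and 4.95% were lower at that p, and DESeq2 called 1.14% lower. Of the 19 at the filter's level in every library, 18 were negative and 4 were lower without overlap, with a median of −0.39. The 1991 tested genes of that kind had 59% negative, 12.4% lower without overlap and a median of −0.12. Pola1, the catalytic subunit of DNA polymerase alpha, had 29.8, 69.8 and 29.2 CPM in replicates 1 to 3, against 193, 155 and 192 CPM in replicates 4 to 6 (−2.01, SE 0.53, adjusted p = 0.16).

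Signs of the state of the cells and of the RNA were measured beside these groups. Malat1, a nuclear noncoding RNA, took 0.621, 0.637 and 0.517% of counts in replicates 1 to 3, against 0.363, 0.374 and 0.185% in replicates 4 to 6 (log2 fold change 0.81, SE 0.20, adjusted p = 0.15 in edgeR). Immediate early genes, which dissociation can induce, had a median of 0.58 over 6 tested of 27, and Fos had 66, 4 and 6 counts against 0 in each of replicates 4 to 6, most of them in replicate 1. Egr1 had 19, 30 and 14 counts in replicates 1 to 3 and 0, 8 and 0 in replicates 4 to 6 (3.41, SE 1.19, adjusted p = 0.36). The p53 target Cdkn1a, an inhibitor of the cell cycle, had 0 counts in each of replicates 1 to 3 and 19, 5 and 84 in replicates 4 to 6, and 0, 0 and 1 against 18, 10 and 146 counts in double-negative libraries. The 6 tested p53 targets had a median of 0.20 that changed sign in 9 of 21 alternatives. The part of these measures in the gene differences was not tested.

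The same set difference in the double-negative gate was then placed beside that of AnnexinV-positive cells, in a fit of all 12 bulk libraries. The contrast of the set differences between the gates passed an adjusted p of 0.05 for 4 of 6084 genes (0.0657%), 1 higher and 3 lower, or 6 higher and 5 lower when scaled to total counts without the ribosomal RNA gene, which moved the median over all genes to 0.66. Robo2 was the only member of the guidance or neurogenic lists among the 4. In double-negative cells Robo2 had 57, 22 and 13 counts in libraries 1 to 3 and 35, 17 and 45 in libraries 4 to 6, a log2 fold change of −0.02, and its difference of set differences was 5.95 (SE 1.01, adjusted p = 0.0033 in edgeR). Neurod6 had 80, 23 and 32 counts against 11, 25 and 16 (1.46), so its difference of 5.11 had an adjusted p of 0.096. Gadd45g, with 23, 44 and 21 against 41, 19 and 46 counts in double-negative cells, had a difference of 4.23 and an adjusted p of 0.073. Nfia was higher in double-negative libraries 1 to 3 as well (1.91, adjusted p = 0.0049 in edgeR), and Gm15772 was lower there too (−5.80, adjusted p = 0.0054). As groups, neurogenic genes had a median of 0.11 in the double-negative gate, ribosomal proteins −0.19 with 51 of 82 negative (51.7% of all genes were), axon guidance genes 0.62 and glycolysis genes −1.02. In that gate 35 genes were called (0.575%), 27 higher and 8 lower in libraries 1 to 3.

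**Figure D5:**
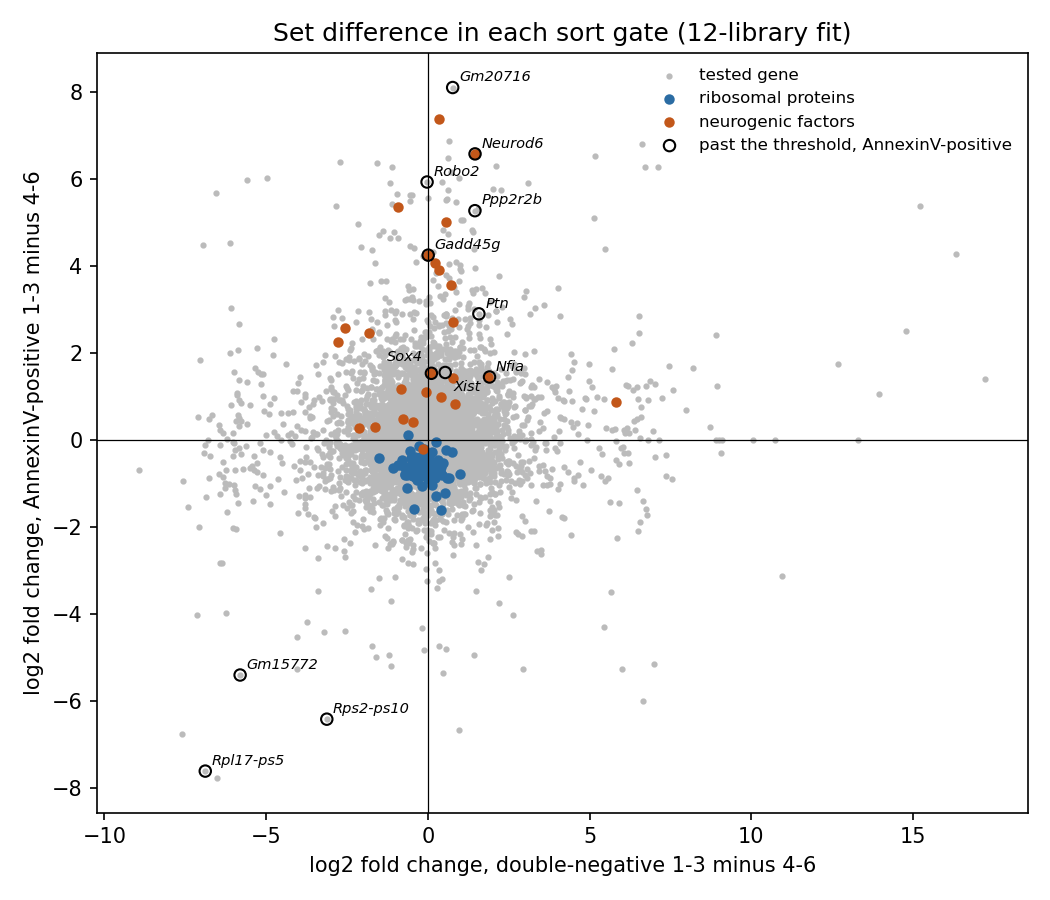
Log2 fold change of replicates 1 to 3 minus replicates 4 to 6 in double-negative cells (horizontal) and AnnexinV-positive cells (vertical) for 6084 genes of the 12-library fit; orange marks neurogenic factors, blue ribosomal proteins and circles the 12 genes called in AnnexinV-positive cells. Robo2 and Gadd45g sit high at a horizontal value near 0 (−0.02 and 0.01), and the 3 pseudogene symbols sit low on both axes.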

How the data were processed

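The authors deposited a table of read counts per gene symbol for the bulk libraries and a second table whose name gives TPM. Of the nonzero deposited values, 8.84% were not whole, so the authors' values are treated as estimated counts, made by a counting step not given in the sources used here, and were rounded to whole numbers. The second deposited table is treated as a score, because its columns sum to 764764 to 1835685 and not to 1000000; it served for alternatives only. The submitters' processing notes name Trimmomatic, STAR, featureCounts and Seurat 4 with builds GRCm38 and mm10, with no order given. The tables held 0 unused sample columns.

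Members were assigned by replicate number; the members and the 27 gene lists were chosen with earlier results of these data known. Replicates 1 to 3 were compared with replicates 4 to 6 in R 4.3.3 with edgeR 4.0.16: filterByExpr (minimum count 10, minimum total 15), trimmed mean of M-values and a robust quasi-likelihood test on the 6 AnnexinV-positive libraries, with Benjamini-Hochberg adjustment over all tested genes. Set differences of both gates were compared in a fit of 12 libraries with 4 groups. SE is the log2 fold change over the root of F. DESeq2 1.42.0 and limma 3.58.1 (voom, and log2 of the TPM-named table plus 1 or 0.1) were alternatives. Scripts were tested on simulated data. Named genes were called genes whose mean log2 CPM reached 3 and whose symbol is not a predicted one (up to 15 each way), up to 6 called members of each list or the 3 of smallest p where none was called, and genes fixed by name; others are named after their values were seen. Of 788 list entries, 3 matched by alias and 1 was not found. Bounds use a floor of 3 counts over the group; intervals are 95% Clopper-Pearson and cover counting error only. Positions are from the GENCODE annotation of GRCm38, sequences from RefSeq (GRCm38.p6).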

Additional observations from a re-analysis of the deposited data

Results flagged for a closer look

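Of the tested genes, 4 had set differences that themselves differed between the gates in edgeR's fit of 12 libraries. Robo2 was at 5.95 on the log2 scale (SE 1.01, adjusted p = 0.0033), with the counts given above. Fth1, the ferritin heavy chain, was at −4.51 (SE 0.55, adjusted p = 8.61e-06), with 67, 57 and 91 counts in AnnexinV-positive replicates 1 to 3 and 102, 190 and 175 in replicates 4 to 6, and with 427, 934 and 156 against 32, 14 and 75 in double-negative libraries. Gpx1, a glutathione peroxidase, was at −4.05 (SE 0.73, adjusted p = 0.019). Car2, a carbonic anhydrase of red cells among other tissues, was at −14.06 (SE 2.27, adjusted p = 0.0039), a fitted value that depends on the prior count, with 0, 0 and 0 against 0, 0 and 4 counts in AnnexinV-positive libraries and 163, 334 and 44 against 0 in each double-negative library 4 to 6. Haemoglobin genes took 12, 30.8 and 12.3% of counts in double-negative libraries 1 to 3 and under 0.001% in double-negative libraries 4 to 6, and at most 0.0096% in any AnnexinV-positive library; their part in the last 3 results was not tested.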

How the results depend on the processing

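The 12 calls became 52 with no filter on low counts (31 higher, 21 lower), 120 with DESeq2 (67 higher, 53 lower) and 5, 2 and 73 with limma on the TPM-named table (pseudocounts 1 and 0.1, and no filter), of which 0, 0 and 26.0% were higher. Leaving out 1 library gave 0 to 9 calls. Added after the data were seen, leaving out replicates 1 and 6 gave 0 and leaving out genes with a fractional value gave 5, where 7 of the 12 could be tested. For the contrast between gates, the 4 calls became 11 with total counts without the ribosomal RNA gene, 13 with no filter, 17 with DESeq2, 0 with limma-voom (470 at an unadjusted p under 0.05), 10, 3 and 9 on the TPM-named table, and 3 to 10 with 1 library left out. With the replicate number as a block it gave 11. Same-numbered libraries of the gates had deviations that correlated at −0.022 to 0.024. The labels do not say whether a number pairs libraries, and such low correlations between sparse counts cannot decide it.

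Over 22 alternatives the medians kept their sign for neurogenic genes (1.09 to 1.93), axon guidance (0.31 to 1.22), ribosomal proteins (−0.83 to −0.56) and glycolysis (−0.96 to −0.57). The axon guidance median moved by at least the SD of library medians within sets in 8 of the 22. The ribosomal median did so in 1. The p53 median of 0.20 became −0.59 with no filter, −0.55, −1.17 and −0.044 on the TPM-named table, −0.57 in the 12-library fit, −0.44 without replicates 1 and 6, and −0.89 to 0.10 with 1 library left out (below 0 without replicate 1, 2 or 3); the sex-linked median of 1.06 became −0.19 with no filter. Of 1488 values of named genes, 22 had the other sign, all in 8 genes that were not called (Stmn2, Col3a1, Herpud1, Neurod1, Col1a1, Sparc, Sox2 and Ddx3y), and 95 of 258 values of called genes lost the call; the causes were not tested. With 2.55 to 5.97 CPM per count, genes under about 10 counts could not be tested.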

Other observations

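Genes of DNA replication had the lower summed level in libraries 1 to 3 of both gates. Replication genes summed to 2918, 4641 and 3125 CPM in AnnexinV-positive replicates 1 to 3, against 5191, 5195 and 4746 CPM in replicates 4 to 6, and to 1944, 1178 and 790 CPM in double-negative libraries 1 to 3, against 4189, 2631 and 3847 CPM in libraries 4 to 6. Neither gate overlapped. Mitosis genes summed to 4963 to 7643 CPM in AnnexinV-positive replicates 1 to 3, against 5387 to 5899 CPM in replicates 4 to 6, with overlap. In double-negative cells they summed to 3439, 3929 and 548 CPM in libraries 1 to 3, against 1809, 267 and 1529 CPM in libraries 4 to 6, also with overlap, and the median log2 fold change was 1.68 for mitosis genes and −1.40 for replication genes.

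The cyclin-dependent kinase inhibitor gene Cdkn1a was too low to test in AnnexinV-positive cells alone. In the 12-library fit its log2 fold change in double-negative cells was −6.53 (edgeR adjusted p = 0.012), a fitted value that depends on the prior count. Among AnnexinV-positive libraries, 11 genes had 0 counts in each of replicates 1 to 3, a count in each of replicates 4 to 6 and a sum of 30 or more, and 15 genes had the reverse pattern. In both gates at once, Rpl17-ps5 was the only gene at 0 in every library 1 to 3 and counted in every library 4 to 6, and Atp9b and Psd3 were the only genes with the reverse.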
